A study of Mus musculus with 904 samples.

Results

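The genes described here are 9 transcription factors of excitatory cortical neurons: Neurod1, Neurod2, Neurod6, Tbr1, Cux2, Fezf2, Rorb, Mef2c and Tle4. They are a fixed list of 9 genes out of 32285 in the count table, drawn up with earlier results of these data known but with no threshold on a measured value, and were followed in single mouse brain nuclei. Of 904 nuclei, 835 had at least 1000 genes and 10000 reads and were kept. Among these, 134 were excitatory by Slc17a7, which loads glutamate into synaptic vesicles. None of the 9 genes took part in sorting nuclei into classes. On mm10, with GENCODE M21, the genes lie at chr2:79452521-79456751 (Neurod1), chr11:98325415-98329648 (Neurod2), chr6:55677822-55681263 (Neurod6), chr5:121856366-122050102 (Cux2), chr14:12342094-12348189 (Fezf2), chr19:18930605-19111196 (Rorb) and chr19:14448150-14598051 (Tle4) on the minus strand, and at chr2:61802930-61814114 (Tbr1) and chr13:83504034-83667080 (Mef2c) on the plus strand.

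Excitatory neurons of the cortex arise from progenitors of the dorsal forebrain, whereas the inhibitory neurons of cortex and striatum arise in the ventral forebrain. Basic helix-loop-helix factors of the NeuroD family act in excitatory neurons as they leave the cell cycle and mature, and bind a short DNA motif called the E-box. Other factors then differ between cortical layers: Cux2 is a homeodomain protein of the upper layers, Rorb a nuclear receptor best known in layer 4, Fezf2 a zinc finger protein of deep-layer neurons that project below the cortex, and Tbr1 a T-box protein of layer 6. Tle4 is a Groucho-type corepressor used as a marker of corticothalamic neurons, and Mef2c is a MADS-box factor that acts in synapse development in several neuron types.

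The nuclei came from C57Bl/6J mice given a PHP.eB adeno-associated virus at 5e11 vector genomes per mouse and sorted for YFP fluorescence after 3 to 4 weeks. No age is given in the labels. In every construct the DLX2.0 enhancer, which is used to label forebrain GABAergic neurons, drives a nuclear reporter: SYFP2 fused or linked to histone H2B, with or without RNA elements before or after it, or dTomato-H2B. There were 16 constructs and 3 library pools, S40317, S40325 and S40327. The labels name no animal, so the nuclei of 1 construct were summed into 1 sample. Tests between construct sums therefore measure the spread between constructs, which may be technical. The titles that give the construct and the treatment codes disagree, since each title covers 4 or 5 codes, and the largest share of a title's nuclei under 1 code is 25% to 50.0%. The counts of members with the code as the sample are given beside those with the construct.

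A nucleus was called excitatory at 50 counts per 1000000 reads (CPM) or more of Slc17a7, striatal projection at 20 CPM or more of Rgs9 with Slc17a7 under 20 CPM, Sst at 100 CPM or more of Sst, Pvalb at 20 CPM or more of Pvalb with Sst under 100 CPM, Aqp4 at 20 CPM or more of Aqp4 and Mog at 20 CPM or more of Mog. This gave 134 excitatory nuclei, against 214 striatal projection, 114 Sst, 92 Pvalb, 35 Aqp4 and 37 Mog nuclei. A further 92 nuclei met 2 classes and 117 met none. By the labels every nucleus is from primary visual cortex, while the design text of the series names striatum and motor cortex as well. The 214 striatal projection nuclei go against a purely cortical source: Ppp1r1b, the dopamine signalling protein DARPP-32, reached 20 CPM in 92.1% of them, against 28.4% of excitatory nuclei. The excitatory label held, in that Camk2a, a kinase subunit abundant in excitatory neurons, reached 20 CPM in 84.3% of those nuclei, while Lhx6, a factor of interneurons, reached it in none. Aqp4 and Mog were kept below 20 CPM there by the class rule. A few excitatory nuclei carried other cells' markers, with up to 24380 CPM summed over 9 striatal markers in a nucleus of pool S40325. Depth was 30023 to 719419 reads per kept nucleus. Median depth was 233164 reads in excitatory nuclei, against 251100 to 325977 in the other classes. Median gene number was 3481.5 in excitatory nuclei, against 2560 in striatal projection, 3003 in Sst, 3263 in Pvalb, 1622 in Aqp4 and 1144 in Mog nuclei.

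Neurod2 and Neurod6 were the members found most evenly over excitatory samples and nearly nowhere else, so the bases upstream of both start sites are shown for comparison, from RefSeq on GRCm38.p6. Capitals mark the E-box letters CANNTG, which read the same on both strands. The Neurod2 window is chr11:98329649-98329895 on the minus strand and the Neurod6 window is chr6:55681264-55681513 on the minus strand, both printed 5′ to 3′.
Neurod2: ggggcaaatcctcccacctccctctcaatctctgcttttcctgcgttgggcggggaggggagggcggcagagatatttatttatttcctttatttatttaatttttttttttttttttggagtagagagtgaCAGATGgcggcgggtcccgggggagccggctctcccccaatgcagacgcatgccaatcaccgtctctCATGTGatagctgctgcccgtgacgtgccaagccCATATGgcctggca
Neurod6: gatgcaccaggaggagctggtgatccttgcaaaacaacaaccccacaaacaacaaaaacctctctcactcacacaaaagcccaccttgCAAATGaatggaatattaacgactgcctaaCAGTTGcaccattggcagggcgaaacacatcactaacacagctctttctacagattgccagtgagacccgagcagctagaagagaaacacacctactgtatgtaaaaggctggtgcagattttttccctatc
The Neurod2 window holds 3 such matches, among them CAGATG and CATATG, and the Neurod6 window holds 2, neither of those. CAGATG was searched on both strands, and both of these motifs are cases of CANNTG. Over 32851 promoter windows of 250 bases, 66.2% hold CANNTG, 14.4% hold CAGATG and 3.46% hold CATATG. These matches describe letters and not binding.

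Neurod6 reached 20 CPM in 73 of 134 excitatory nuclei, which is 54.5% (Clopper-Pearson 95% interval 45.7% to 63.1%, covering counting error only). It reached 20 CPM in none of 214 striatal projection, 1 of 114 Sst, 3 of 92 Pvalb, 0 of 35 Aqp4 and 0 of 37 Mog nuclei. Summed per construct, Neurod6 ran from 54.5 CPM over a median of 254 to 485 CPM in the 13 excitatory sums, against 0 in all 12 striatal sums, 0 to 3.63 CPM in the 12 Sst sums and 0 to 17.5 CPM in the 9 Pvalb sums. The excitatory sums overlapped none of the others, and the share of all genes without such overlap was not counted. By counting error alone, the pooled level was at least 5078-fold higher in excitatory than in striatal projection sums. This bound sets the striatal reads at 3 counts over the group and covers no spread between nuclei or constructs. With 0 of 214 striatal nuclei holding a read, counting error alone (3 counts of the total) allows up to 1.40% of nuclei with a read, which is no limit on nuclei that express the gene.

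Neurod2 reached 20 CPM in 70 of 134 excitatory nuclei (52.2%, 43.4% to 60.9%), and in 0 striatal projection, 0 Sst, 1 Pvalb, 0 Aqp4 and 1 Mog nuclei. Its excitatory sums ran from 23.8 CPM over a median of 84.5 to 130 CPM, against 0 in the 12 striatal and 9 Pvalb sums and at most 0.545 CPM in the Sst sums. Among these sums of at least 5 nuclei no excitatory sum overlapped those of another class, with the share over all genes not counted. In sums of at least 3 nuclei 1 Pvalb sum stood at 58.4 CPM, above the lowest excitatory sum. By the same bound, which covers counting error only, the pooled level was at least 1407-fold higher than in striatal projection sums. Over all nuclei of the class it was 75.6 CPM in excitatory and 2.04 CPM in Pvalb nuclei, all Pvalb reads being in the 1 nucleus above. Against Sst sums, which held 1 read, the ratio was 2022 (exact interval 363 to 79900, covering counting error only).

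Neurod1, an earlier factor of the family, was the sparse member. It reached 20 CPM in 14 of 134 excitatory nuclei (10.4%, 5.83% to 16.9%), and no read of it was seen in any nucleus of the other 5 classes. By counting error alone, 0 reads (3 counts of the total) allows up to 1.40% of striatal projection, 2.63% of Sst and 3.26% of Pvalb nuclei with a read, and sets no limit on nuclei that express it. Its excitatory sums ran from 0 over a median of 7.20 to 51.7 CPM, and 4 of the 13 were at 0, so they overlapped the other classes. Neurod1 did not pass the test in any class comparison, with edgeR adjusted p = 0.130 against striatal projection, 0.0867 against Sst and 0.183 against Pvalb nuclei. Neurod1 lies within the longer gene Cerkl on the same strand, so some of its reads may be shared with that gene.

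In the fit over construct sums, with the quasi-likelihood test of edgeR and the construct as a block, 7 of the 9 genes were higher in excitatory than in striatal projection nuclei, where 2.02% of all 16488 genes tested were higher, 1.07% lower and 3.09% either. Against Sst nuclei 5 of 9 were higher, where 2.11% of all genes were higher, 0.952% lower and 3.06% either. Against Pvalb nuclei 4 of 9 were higher, where 2.17% of all genes were higher, 0.764% lower and 2.94% either. None was lower in these 3 comparisons. The fitted log2 fold changes of genes with many sums at 0 are larger than the ratio of the reads pooled over all sums, so the pooled CPM is given beside them. Neurod2, Neurod6, Tbr1 and Fezf2 passed in all 3. Pool S40317 held 54 of 134 excitatory nuclei, against 0 of 214 striatal projection, 7 of 114 Sst and 16 of 92 Pvalb nuclei. The block was the construct and not the pool, so class and pool are partly mixed. The counts rest on all 3 pools. Without pool S40317 they were 2, 2 and 0 against striatal projection, Sst and Pvalb nuclei, without S40325 they were 3, 2 and 2, and without S40327 they were 1, 1 and 1. Calls over all genes fell as well, from 509, 505 and 484 of 16488 with all pools. In the same class order they were 139, 263 and 157 of 15899 without S40317 and 268, 134 and 138 of 16852 without S40325. Without S40327 they were 32, 122 and 57 of 12881. With the 87 kept nuclei of more than 0.3% mitochondrial reads left out, 6, 5 and 1 members passed. All genes called were then 412, 435 and 293 of 18087. With the treatment code as the sample 5, 5 and 3 members passed, with Cux2 and Rorb lost against striatal projection and Fezf2 against Pvalb nuclei. All genes called were then 487, 479 and 535 of 18430. No member that passed changed sign in any of these, and Neurod6 passed in each except against Pvalb nuclei without S40317 (adjusted p = 0.0502).

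**Figure D1:**
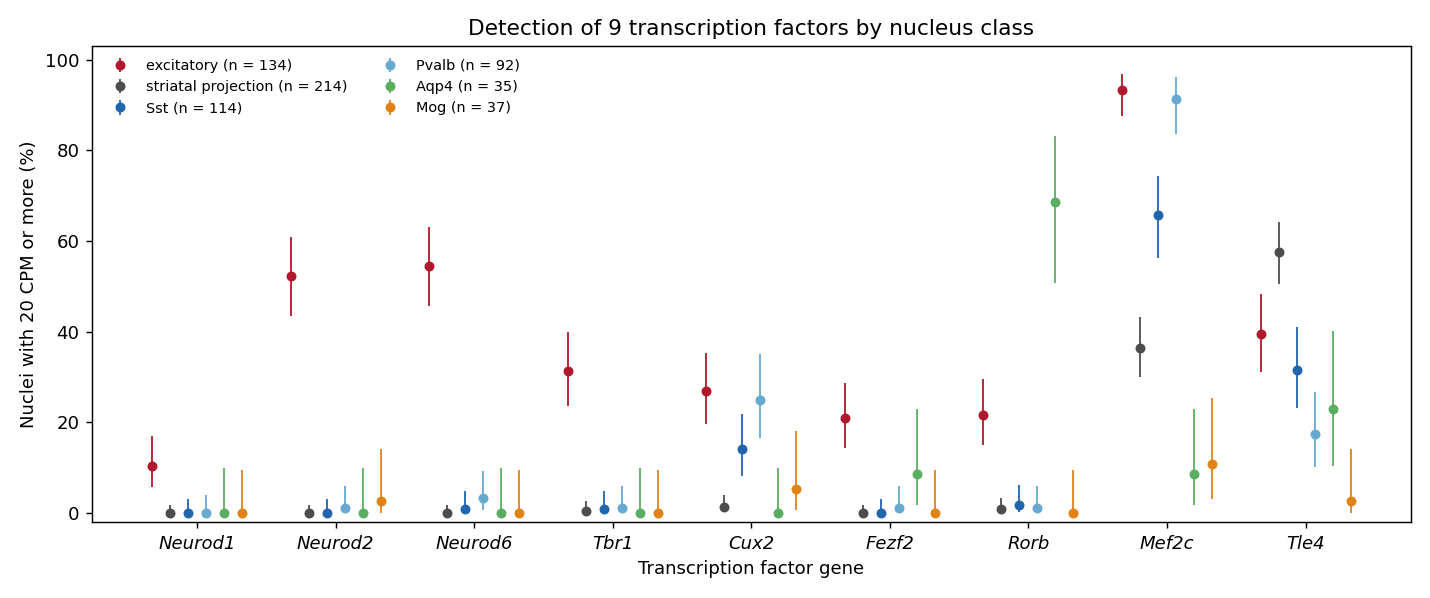
Percent of nuclei with at least 20 CPM of each gene (vertical axis), by class, with Clopper-Pearson 95% intervals that cover counting error only. Neurod1, Neurod2, Neurod6, Tbr1 and Fezf2 stand at or near 0 outside the excitatory nuclei apart from Fezf2 in 8.57% of Aqp4 nuclei, while Cux2, Mef2c and Tle4 do not.

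The deep-layer factors Tbr1 and Fezf2 were also high in excitatory nuclei. Tbr1 reached 20 CPM in 42 of 134 excitatory nuclei (31.3%, 23.6% to 39.9%), and in 1 striatal projection, 1 Sst, 1 Pvalb, 0 Aqp4 and 0 Mog nuclei. The excitatory sums ran from 0 over a median of 51.9 to 287 CPM, with 1 of 13 at 0. All but 1 of the 12 striatal sums and 10 of the 12 Sst sums were at 0. The single striatal sum with reads, at 49.7 CPM, lay above 6 of the 13 excitatory sums. Pooled over the sums, Tbr1 was at 91.2 CPM in excitatory nuclei, against 1.36 CPM in striatal projection, 1.32 CPM in Sst and 2.55 CPM in Pvalb nuclei. The log2 fold change was 10.03 ± 1.88 (SE) against striatal projection (adjusted p = 0.00027), 10.02 ± 2.003 against Sst (0.000711) and 9.62 ± 2.26 against Pvalb nuclei (0.00527).

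Fezf2 reached 20 CPM in 28 of 134 excitatory nuclei (20.9%, 14.4% to 28.8%), against 0 of 214 striatal projection, 0 of 114 Sst and 1 of 92 Pvalb nuclei. Its excitatory sums ran from 0 over a median of 58.4 to 172 CPM, against 0 in all striatal and Sst sums and at most 10.2 CPM in the Pvalb sums. By counting error alone, the pooled level was at least 1085-fold higher than in striatal projection sums and at least 520-fold higher than in Sst sums. The edgeR adjusted p was 0.00134 and 0.00169. Against Pvalb nuclei the log2 fold change was 7.88 ± 2.17 (adjusted p = 0.0289), with pooled levels of 58.8 CPM in excitatory and 1.195 CPM in Pvalb nuclei. With DESeq2 none of these 3 Fezf2 comparisons passed, with adjusted p of 0.0754, 0.12 and 0.26, and none passed without any 1 of the pools (0.0519 to 0.739). The 1 non-neuronal class with Fezf2 was Aqp4, with 3 of 35 nuclei at 20 CPM or more and up to 562 CPM.

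Tle4 was not called between excitatory and the other neuron classes. It reached 20 CPM in 53 of 134 excitatory nuclei (39.6%, 31.2% to 48.4%), against 123 of 214 striatal projection nuclei (57.5%, 50.6% to 64.2%), 36 of 114 Sst (31.6%), 16 of 92 Pvalb (17.4%), 8 of 35 Aqp4 (22.9%) and 1 of 37 Mog nuclei (2.703%). The excitatory sums ran from 3.69 over a median of 85.9 to 259 CPM, and the striatal sums from 53.3 over a median of 153 to 259 CPM. These ranges overlapped almost in full. The log2 fold change of excitatory over striatal projection nuclei was -0.77 ± 0.80 (adjusted p = 0.813), against Sst nuclei 1.5 ± 0.83 (0.476) and against Pvalb nuclei 2.87 ± 1.003 (0.12).

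The upper-layer factors were less alike. Cux2 reached 20 CPM in 36 of 134 excitatory nuclei (26.9%, 19.6% to 35.2%), and in 3 of 214 striatal projection (1.40%), 16 of 114 Sst (14.04%) and 23 of 92 Pvalb nuclei (25%, 16.6% to 35.1%). Its excitatory sums ran from 0 over a median of 15.1 to 93.2 CPM, against 0 to 18.7 CPM in striatal sums, 0 to 96.7 CPM in Sst sums and 11.4 to 38.3 CPM in Pvalb sums. Only the striatal sums lay mostly below the excitatory ones, with 31.4 CPM pooled over the excitatory and 1.66 CPM over the striatal sums. Cux2 was higher than in striatal projection nuclei, with a log2 fold change of 5.35 ± 1.55 (adjusted p = 0.0357), though not with the treatment code as the sample (0.093), with only these 2 classes in the fit (0.051), without the nuclei over 0.3% mitochondrial reads (0.0631) or without any 1 of the pools (0.157 to 0.971). Against Sst nuclei the value was 0.92 ± 1.49 (0.901) and against Pvalb nuclei 0.17 ± 1.15 (1), and both turned negative without pool S40325 (-1.38 and -1.13). Reads of 2 antisense transcripts, Gm3970 and Gm15637, may be counted with Cux2 where strand was not used.

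Rorb reached 20 CPM in 29 of 134 excitatory nuclei (21.6%, 15% to 29.6%), and in 2 striatal projection, 2 Sst and 1 Pvalb nucleus, which is 0.935%, 1.75% and 1.09%. The excitatory sums ran from 0 over a median of 41.6 to 226 CPM, against at most 21.1 CPM in striatal, 20.02 CPM in Sst and 6.25 CPM in Pvalb sums. With 2 excitatory sums at 0, the ranges overlapped at the low end. Pooled levels were 60.3 CPM in excitatory nuclei, against 1.84 CPM in striatal projection, 2.64 CPM in Sst and 1.72 CPM in Pvalb nuclei. Rorb was higher than in striatal projection nuclei by a log2 fold change of 5.89 ± 1.71 (adjusted p = 0.0388) and than in Sst nuclei by 7.22 ± 1.91 (0.0179). Against Pvalb nuclei it was 6.10 ± 2.03 (0.0959), which passed with DESeq2 (0.000347) and with sums of at least 3 nuclei (0.000186). The striatal call was lost with the treatment code as the sample (0.402), with only these 2 classes in the fit (0.0739) and without any 1 of the pools (0.14 to 0.668).

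Mef2c was common to several neuron classes. It reached 20 CPM in 125 of 134 excitatory nuclei (93.3%, 87.6% to 96.9%), 78 of 214 striatal projection (36.4%, 30% to 43.3%), 75 of 114 Sst (65.8%) and 84 of 92 Pvalb nuclei (91.3%, 83.6% to 96.2%). The excitatory sums ran from 664 over a median of 961 to 1366 CPM, against 11.4 to 318 CPM in striatal sums, 188 to 1327 CPM in Sst sums and 555 to 1254 CPM in Pvalb sums. Among these sums of at least 5 nuclei every excitatory sum lay above every striatal sum, with the share over all genes not counted. The range of the Pvalb sums overlapped the excitatory one. In sums of at least 3 nuclei the lowest excitatory sum was 476 CPM and the highest striatal sum 527.5 CPM, so those ranges overlapped. The log2 fold change was 2.65 ± 0.42 against striatal projection (adjusted p = 1.24e-05), 1.05 ± 0.40 against Sst (0.165) and 0.26 ± 0.44 against Pvalb nuclei (0.94).

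**Figure D2:**
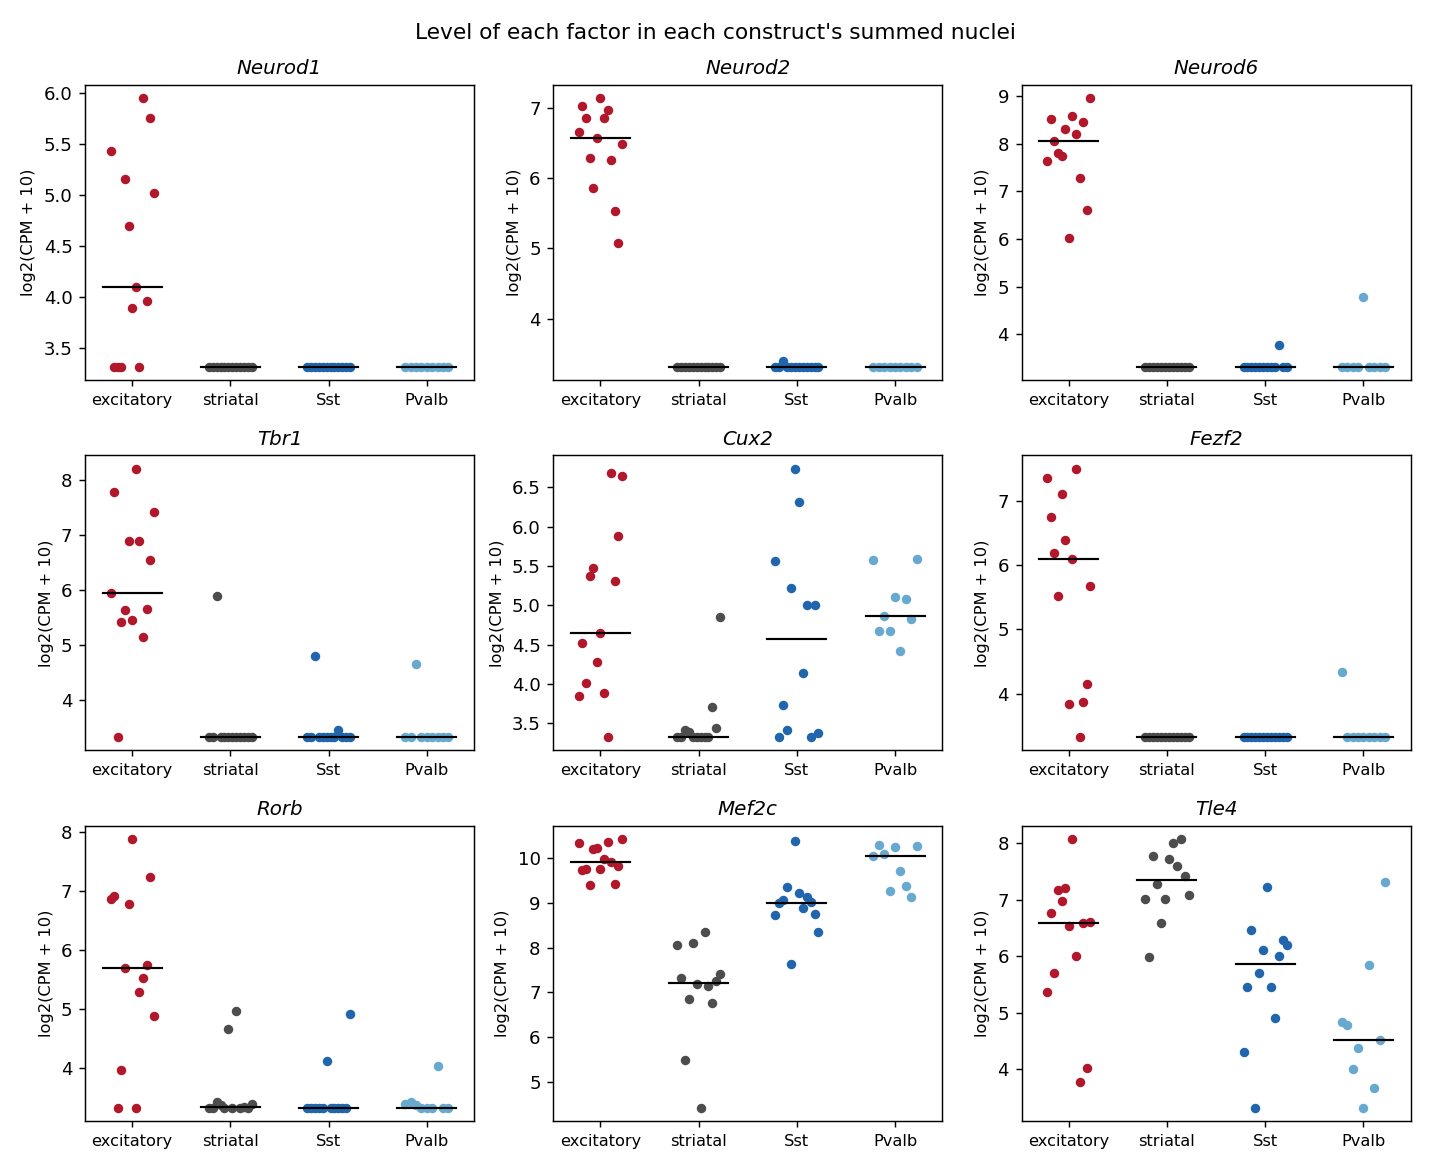
Level of each gene as log2(CPM + 10) in the reads summed over the nuclei of a class within a construct, for sums of at least 5 nuclei, with the median as a line (13 excitatory, 12 striatal projection, 12 Sst and 9 Pvalb sums). Neurod2, Neurod6 and Mef2c show no overlap between excitatory and striatal sums of this size, and Tle4 shows the reverse order of medians. The share of all genes without such overlap was not counted.

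Against the glial classes the fit needed sums of at least 3 nuclei, since at the intended 5 only 2 Aqp4 and 3 Mog sums were left. Glial nuclei had few genes, and the median log2 fold change of all 13749 genes tested was 3.51 against Aqp4 and 3.62 against Mog nuclei (3.15 and 3.37 with RLE scaling). The background of calls was 40.1% higher, 2.89% lower and 43% either against Aqp4 nuclei, and 36.3% higher, 2.07% lower and 38.4% either against Mog nuclei. Against Mog nuclei 7 of 9 members were higher, all but Neurod1 and Cux2, and 8 with the treatment code as the sample, where Neurod1 was added (adjusted p = 0.0367). Against Aqp4 nuclei 5 of 9 were higher (Neurod2, Neurod6, Tbr1, Cux2 and Mef2c) and 1 was lower, against 5 and 0 with the treatment code. Of 13632 genes tested with the code, 5042 were higher against Mog nuclei, and 5153 were higher and 370 lower against Aqp4 nuclei.

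The member lower than in a glial class was Rorb. It reached 20 CPM in 24 of 35 Aqp4 nuclei (68.6%, 50.7% to 83.2%), against 29 of 134 excitatory nuclei (21.6%). The mean was 59.1 CPM over excitatory and 434 CPM over Aqp4 nuclei. The log2 fold change of excitatory over Aqp4 nuclei was -3.80 ± 1.38 (edgeR adjusted p = 0.0219), and all 8 Aqp4 sums held reads. The call was lost with the treatment code as the sample (-2.65, adjusted p = 0.243) and with only these 2 classes in the fit (-4.14, 0.0823). Neurod2, Neurod6 and Tbr1 had no read in these Aqp4 sums. By counting error alone, their pooled levels were at least 242-, 855- and 283-fold higher in excitatory sums.

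Other genes of the same biology were read from lists. The lists, like the members, were chosen with results known, so their counts are descriptions, and some genes stand in more than 1 list. Over all genes tested against striatal projection, Sst and Pvalb nuclei, 2.02%, 2.11% and 2.17% were higher and 1.07%, 0.952% and 0.764% lower. These shares apply to all list counts against these classes below. Of 20 relatives of the members in the same gene families, such as Mef2a, Tle1 and Eomes, 12 were tested. None passed in either direction against these classes, where 3.09%, 3.06% and 2.94% of all genes passed. With 12 genes, 0 is near those shares. Of 16 tested pan-excitatory genes, 7 were higher against striatal projection (median log2 fold change 6.59, against 0.21 over all genes), 7 against Sst (5.98, against 0.41) and 4 against Pvalb nuclei (5.22, against 0.41), and none was lower. Nr4a2, an orphan nuclear receptor, held no read in striatal projection or Sst nuclei and reached 20 CPM in 18.7% of excitatory nuclei. Nfix, a nuclear factor I protein, reached 20 CPM in 47.01% of excitatory and 1.40% of striatal projection nuclei (log2 fold change 8.43 ± 1.80, adjusted p = 0.0016, pooled 79.4 and 0.664 CPM). Lmo4, a LIM-only protein, rose by 3.73 on the log2 scale over Pvalb nuclei (0.0062), at 69.4% of excitatory and 16.3% of Pvalb nuclei and pooled levels of 176.5 and 18.5 CPM.

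Among 18 tested deep-layer genes, 4 were higher and 1 lower against striatal projection, 8 were higher against Sst and 3 were higher against Pvalb nuclei. Sox5, which acts in deep-layer differentiation, reached 20 CPM in 45.5% of excitatory and 0.935% of striatal projection nuclei (9.92 ± 1.54, adjusted p = 8.47e-06, pooled 70.4 and 0.804 CPM). Foxp2, a forkhead factor, reached it in 19.4% of excitatory and 1.75% of Sst nuclei (8.02 ± 1.23, 5.09e-06), while its pooled levels, 48.97 CPM in excitatory and 12.01 CPM in Sst nuclei, differed far less. Syt6, a synaptotagmin, was lower than in striatal projection nuclei by -4.70 ± 1.34 (0.0326), at 8.21% of excitatory and 41.6% of striatal nuclei and pooled levels of 29.9 and 161 CPM.

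Of 11 tested superficial-layer genes, 1 was higher and 1 lower against striatal projection, 2 were higher against Sst and 1 was higher against Pvalb nuclei. Rasgrf2, a Ras exchange factor, was higher than in striatal projection nuclei by 4.35 ± 1.15 (adjusted p = 0.0171, pooled 99.6 and 10.1 CPM). Wfs1, an endoplasmic reticulum membrane protein, was lower by -6.12 ± 1.74 (0.0322, pooled 8.64 and 103.3 CPM). Of 15 tested striatal factors, 4 were lower and none higher against striatal projection nuclei, with a median of -4.95. Against Sst nuclei 3 were higher and 3 lower, and against Pvalb nuclei 3 were higher and 2 lower.

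Interneuron factors had negative medians against the other neuron classes, and not against Aqp4 (1.41) or Mog nuclei (0.467). Of 17 tested, 11 were lower and none higher against Sst nuclei (median -7.10) and 9 were lower against Pvalb nuclei (median -6.55). Lhx6, a LIM homeodomain factor of medial ganglionic eminence interneurons, had no read in excitatory nuclei and reached 20 CPM in 47.4% of Sst and 23.9% of Pvalb nuclei. Sox6 reached it in 0.746% of excitatory, 82.5% of Sst and 66.3% of Pvalb nuclei. Against striatal projection nuclei 2 were lower, Dlx5 and Dlx6, and 1 was higher, the chromatin organiser Satb1 (7.03 ± 1.09, adjusted p = 8.47e-06, pooled 149 and 4.18 CPM).

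Most excitatory nuclei carried several of the 9 factors. The median was 3 per nucleus at 20 CPM or more, 63 of 134 nuclei held 4 or more, 1 held none and the most was 8. In the other 5 classes the median was 0 or 1, and 1 nucleus, a Pvalb one, held 4. Which factors met in a nucleus was set against the number that the separate shares would give, over 36 pairs and without a test, since nuclei of 1 construct are not separate samples.

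Cux2 and Fezf2 never met at 20 CPM or more: 0 of 134 nuclei held both, where the shares would give 7.52. The number in each pool is then 0 as well, which adds nothing further. When a single read counted, 1 nucleus held both (10.0 by the shares). Fezf2 met Tle4 in 19 nuclei, against 11.1 by the shares, so that 67.9% of Fezf2 nuclei and 32.1% of the others held Tle4. The excess was seen within pools S40317 (10, against 7.5), S40325 (3, against 2.04) and S40327 (6, against 2.12). Neurod6 met Rorb in 23 nuclei, against 15.8, and met Cux2 in 13, against 19.6. The Neurod6 and Cux2 shortfall was seen in pools S40325 (2, against 7.34) and S40327 (3, against 3.94), and not in S40317 (8, against 7.54). Mef2c, present nearly everywhere, met each of the others about as often as the shares give.

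Tbr1 met Neurod6 in 33 nuclei, against 22.9, and Neurod2 in 31, against 21.9. By pool, Neurod6 and Tbr1 met in 23 nuclei of S40317, against 17.8, in 7 of S40325, against 4.404, and in 3 of S40327, against 2.76. Neurod2 and Tbr1 met in 25 nuclei of S40317, against 19.7, in 2 of S40325, against 3.06, and in 4 of S40327, against 2.76. Among the 105 excitatory nuclei with 0.3% or less mitochondrial reads, Neurod2 and Tbr1 met in 8, against 7.78, and Neurod6 and Tbr1 in 12, against 9.23. Fezf2 and Tle4 met there in 10, against 5.14. Cux2 and Fezf2 met in 0, against 4.29, which follows from the 0 over all excitatory nuclei.

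**Figure D3:**
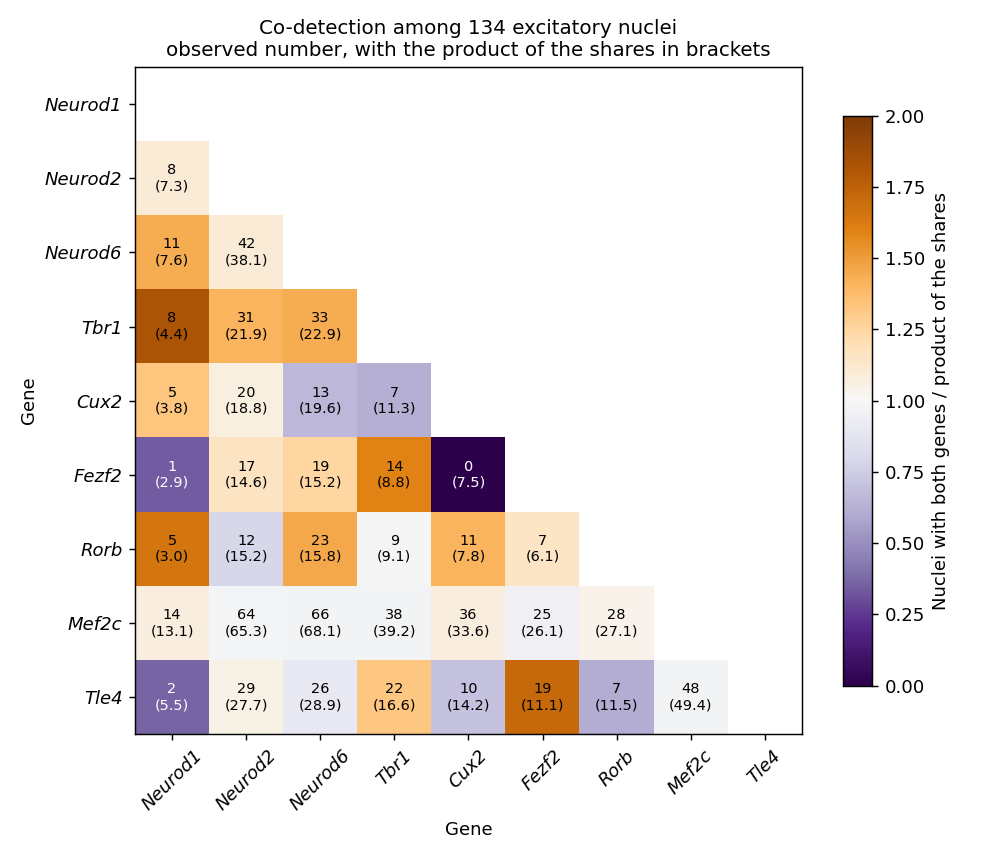
Number of excitatory nuclei (n = 134) with at least 20 CPM of both genes of a pair, with the number given by the product of the 2 shares in brackets, coloured by their ratio. Cux2 and Fezf2 share 0 nuclei, and Fezf2 and Tle4 share 19, against 11.1.

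The excitatory nuclei with Tle4 and no Cux2 at 20 CPM (43) were set beside those with Cux2 and no Tle4 (26). Only 2 constructs had 3 nuclei on both sides, so the planned test could not be run and the shares are a description. Fezf2 reached 20 CPM in 19 of 43 Tle4 nuclei (44.2%) and 0 of 26 Cux2 nuclei, counts already fixed by the pairs above. Tbr1 reached it in 46.5% of Tle4 and 19.2% of Cux2 nuclei. Rorb ran the other way, at 9.30% of Tle4 and 30.8% of Cux2 nuclei. Neurod2 was level, at 55.8% of Tle4 and 57.7% of Cux2 nuclei. Of the 19 listed deep-layer genes, 17 had the higher share in the Tle4 nuclei and 2 in the Cux2 nuclei (Deptor and Hsd11b1). Some of these differences rest on 1 nucleus, as for Bcl6 and Osr1, or are small, as for Foxp1 (90.7% and 84.6%). Among the 19, Bcl11b (53.5% and 3.85%), Foxp2 (46.5% and 3.85%) and Crym (39.5% and 0%) were more common in the Tle4 nuclei, and Nfia stood at 48.8% and 11.5%. Of the 11 listed superficial genes, 10 had the higher share in the Cux2 nuclei and 1 in the Tle4 nuclei (Bhlhe22). Among them Calb1, a calcium buffer (11.6% of Tle4 and 80.8% of Cux2 nuclei), and Rasgrf2 (13.95% and 69.2%) were more common in the Cux2 nuclei. The 43 Tle4 nuclei held 22 of pool S40317, and the 26 Cux2 nuclei held 6. Excitatory nuclei of S40317 had a median of 4889.5 genes, against 3479 in S40325 and 3438 in S40327. The part of gene number in these shares was not tested, and the same count over all genes was not made.

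Library pools differed in their excitatory nuclei. These made up 50.9% of kept nuclei in S40317 (54), 12.8% in S40325 (47) and 9.12% in S40327 (33), and S40317 held no striatal projection nucleus. Median gene number in excitatory nuclei was 4889.5 in S40317, 3479 in S40325 and 3438 in S40327. More than 0.3% mitochondrial reads were found in 28 of 54, 1 of 47 and 0 of 33 of them. Of the 19 pool sums, 10 came from 5 constructs with sums in 2 pools, and the other constructs were in 1 pool each. With the construct as a block, 9 genes were called for S40317 and 3 for S40325 against S40327, with 0 members in both.

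Neurod2 reached 20 CPM in 75.9% of excitatory nuclei in S40317 (62.4% to 86.5%), 34.04% in S40325 (20.9% to 49.3%) and 39.4% in S40327 (22.9% to 57.9%). Tbr1 reached it in 48.1%, 19.1% and 21.2% of the 3 pools in that order, and Neurod6 in 68.5%, 48.9% and 39.4%. Cux2 leaned the other way, at 20.4%, 31.9% and 30.3%, within overlapping intervals, and Mef2c was at 88.9%, 95.7% and 97.0%. Nuclei with 4 or more members were 64.8% in S40317, 34.04% in S40325 and 36.4% in S40327.

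Over construct sums these differences did not pass the test, which with 8 and 7 sums does not show that they are absent. In the edgeR fit of S40317 against S40327 (8 and 7 sums), 0.448% of 11163 genes passed (0.412% higher, 0.0358% lower), and none of the 9 members did. No list gene passed in this or the other comparisons within excitatory nuclei. Neurod2 ran from 83.4 to 254 CPM in S40317 sums, against 0 to 134 CPM in S40327 sums, a log2 fold change of 1.11 ± 0.82 (adjusted p = 0.771). The values were 1.70 ± 1.09 for Tbr1 (0.675), 1.14 ± 0.69 for Neurod6 (0.639) and 0.84 ± 0.34 for Mef2c (0.264). For S40325 against S40327 (4 and 7 sums) 0% of genes passed, with 740 at an unadjusted p under 0.05 and 70 called by DESeq2, and the members ran from -0.76 (Rorb) to 1.14 (Neurod1).

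**Figure D4:**
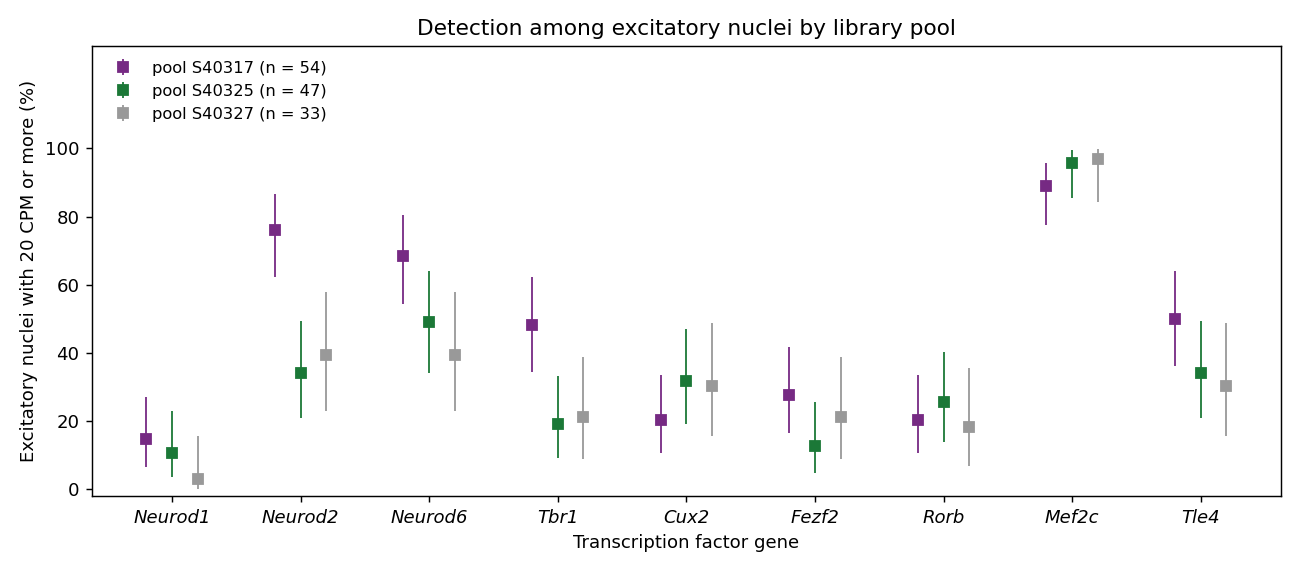
Percent of excitatory nuclei with at least 20 CPM of each gene in the 3 library pools, with Clopper-Pearson 95% intervals. Neurod2 stands at 75.9% in S40317 and at 34.04% and 39.4% in S40325 and S40327, while Cux2 and Rorb lie within overlapping intervals.

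Within S40317 the share moved with the mitochondrial reads. Among its 28 excitatory nuclei above 0.3%, Tbr1 reached 20 CPM in 23 (82.1%, 63.1% to 93.9%), against 3 of the 26 at or below 0.3% (11.5%, 2.45% to 30.15%) and 16 of the 79 such nuclei of the other pools (20.3%). Fezf2 stood at 46.4% above 0.3%, against 7.69% and 16.5%, and Neurod2 at 96.4%, against 53.8% and 36.7%. Cux2 (21.4%, against 19.2% and 31.6%) and Rorb (17.9%, against 23.1% and 22.8%) stood close together. The nuclei above 0.3% also had a median of 6857 genes and 305543 reads, against 2968 genes and 203083 reads at or below it, so gene number, depth and mitochondrial share cannot be told apart here. The 0.3% limit was set after the data were seen, and its part in the pool difference was not tested.

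**Figure D5:**
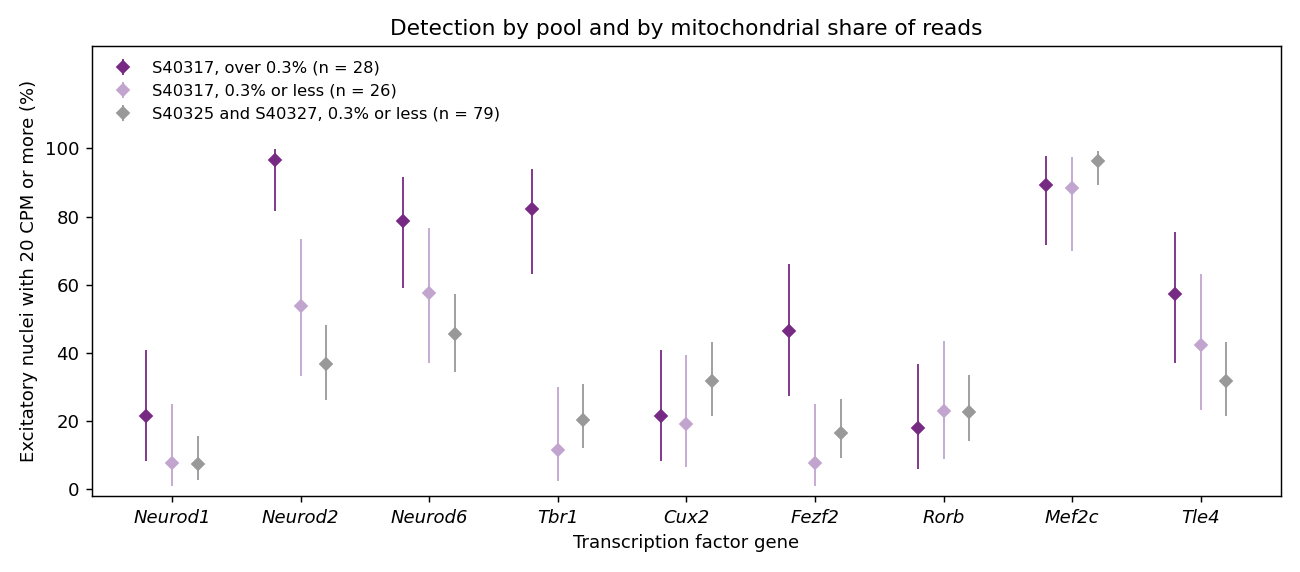
Percent of excitatory nuclei with at least 20 CPM of each gene, for pool S40317 above and at or below 0.3% mitochondrial reads and for the other pools at or below 0.3%, with Clopper-Pearson 95% intervals. Tbr1 stands at 82.1% above the limit, against 11.5% and 20.3%, whereas Cux2 and Rorb lie within overlapping intervals.

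The place of the RNA element did not move the members detectably. Elements after SYFP2-H2B were compared with the same elements before it, over 5 elements. By edgeR 0% of 9563 genes passed, with 152 at an unadjusted p under 0.05 and 63 called by DESeq2. None of the 9 members was called, with log2 fold changes from -1.60 ± 1.39 (Fezf2) to 1.71 ± 2.19 (Neurod1). Mef2c, with the smallest error, was at 0.19 ± 0.31.

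The genes whose levels were most like those of the members were ranked by Pearson's r of log2(CPM + 10) over the 51 construct and class sums, among 11352 genes, as a description, since the sums share class makeup and depth. Neurod2 and Neurod6 were both nearest to Nrn1, a secreted neuritin (0.941 and 0.934), Mef2c to the bicarbonate transporter gene Slc4a10 (0.887), Tbr1 to Igfbp6 (0.865), Fezf2 to Ldb2 (0.838), Neurod1 to 9130024F11Rik (0.816) and Rorb to the LIM homeodomain gene Lhx2 (0.813). Tle4 (Kif17, 0.633) and Cux2 (Zeb2, 0.596) had no close match. Over the 134 excitatory nuclei alone, among 7862 genes, Rorb was nearest to Pamr1 (0.627), Cux2 to Calb1 (0.606), Fezf2 to Crym (0.571) and Tbr1 to Tspyl4 (0.57).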

How the data were processed

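Single nuclei were profiled with SMART-Seq v4 and Nextera XT libraries, without molecular identifiers, so intervals and floors cover counting error only. The deposited values are raw read counts per gene. The authors aligned to mm10 with STAR 2.7.2a (per the submitters' processing notes). How reads were counted, with which annotation and strand setting, is not given in the sources used here. The table held 1597 columns of other samples, which were not used. Gene names matched GENCODE M21 for 32235 of 32285 IDs. The 9 members and the gene lists were chosen with earlier results of these data known.

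Nuclei with at least 1000 genes and 10000 reads were kept. Reads were summed per construct and class (5 nuclei or more, and 3 for glia, pools and element position) and tested with edgeR 4.0.16 in R 4.3.3 (TMM scaling, filterByExpr, quasi-likelihood test, Benjamini-Hochberg adjusted p under 0.05 over all genes tested). The intended 5 nuclei left too few glial sums, so the fit at 3 is given. The class fits held all classes and the construct as a block. A standard error is the log2 fold change over the root of F. Named list genes are the 2 in each direction with the smallest p among those called, per list and comparison. Alternatives were RLE scaling, no filter, DESeq2 1.42.0, limma 3.58.1, only the 2 classes compared, other nucleus limits, gates at 2 times the CPM, the treatment code as the sample, leaving out a pool or a construct, thinning to 30000 reads and, chosen after seeing the data, leaving out nuclei over 0.3% mitochondrial reads. Proteins were not used here.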

Additional observations from a re-analysis of the deposited data

Results flagged for a closer look

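Of 34 groups of construct sums tested with Dixon's criterion, 12 had a sum far from the others, where chance gives about 1 in 20 of normally spread groups. That rate does not hold for the 4 in which every other sum was at 0, since any read would then stand apart. Among the 9 Pvalb sums, Neurod6 was at 17.54 CPM in SYFP2-H2B-3xU7snRNAOPT-BC and at 0 in the others, Tbr1 at 15.05 CPM in dTomato-H2B and at 0 in the others, and Fezf2 at 10.17 CPM in 3xsmOPT-SYFP2-H2B-BC and at 0 in the others. Rorb stood at 6.247 CPM in SYFP2-P2A-3XFLAG-H2B-SIRLOIN (next 0.701) and Tle4 at 149.5 CPM in U7snRNAOPT-3'box-SYFP2-H2B-BC (next 47.78).

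Among the 8 excitatory sums of pool S40317, Neurod2 was at 253.7 CPM in 3xsmOPT-SYFP2-H2B-BC (next 159.5), Cux2 at 106.5 CPM in U7snRNAOPT-SYFP2-H2B-BC (next 33.73) and Rorb at 279.3 CPM in SYFP2-H2B-3xsmOPT-BC (next 125.6). Among the 4 of S40325, Tbr1 was at 0 in SYFP2-H2B-U7snRNAOPT-3'box-BC (next 34.91) and Fezf2 at 128.6 CPM in dTomato-H2B (next 4.654). Among the 7 of S40327, Neurod1 was at 67.84 CPM in SYFP2-H2B-U7snRNAOPT-3'box-BC (next 0) and Fezf2 at 183.1 CPM in 3xsmOPT-SYFP2-H2B-BC (next 62.83). The last 2 of these sums held 3 nuclei each.

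The 117 nuclei that met no class entered no comparison. Cux2 reached 20 CPM in 14.53% of them, against 1.402% of striatal projection, 26.87% of excitatory, 14.04% of Sst and 25% of Pvalb nuclei. It stood at 0% in Aqp4 and 5.405% in Mog nuclei. Rorb reached 20 CPM in 16.24%, against 0.9346% of striatal projection, 21.64% of excitatory and 68.57% of Aqp4 nuclei. It stood at 1.754% in Sst, 1.087% in Pvalb and 0% in Mog nuclei. Both shares lay within the range of the classes.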

How the results depend on the processing

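Of 264 summary values under alternatives other than leaving out a construct, 193 kept their direction and stayed within the allowed change. Another 68 moved further, and 3, all co-detection shares, reversed. Among the reversed were Neurod2 with Tbr1 in S40325 and Neurod6 with Cux2 in S40317. No called member changed sign in a class comparison. The cause of the changes below was not tested. Against striatal projection nuclei, genes called numbered 1986 with DESeq2, 1157 with limma and 139, 268 and 32 without pools S40317, S40325 and S40327, with 2, 3 and 1 members. Against Sst nuclei they numbered 2053 with DESeq2, 1040 with limma, 306 with only the 2 classes, 775 with 3 nuclei per sum and 263, 134 and 122 without the pools, with 2, 2 and 1 members. Against Pvalb nuclei they numbered 2040, 1012, 315 and 1001 under the same settings, 157, 138 and 57 without the pools, and 293 without nuclei over 0.3% mitochondrial reads. Pvalb members numbered 7 with 3 nuclei per sum, 0, 2 and 1 without the pools and 1 without those nuclei. Against Aqp4 nuclei genes called were 3652 with only the 2 classes, 3148 without S40317 (3 members) and 3810 without those nuclei. Against Mog nuclei they were 2092 and 3237 (4 members). S40317 against S40327 gave 195 genes without a filter, 269 with DESeq2, 159 with limma, 9 with the construct as a block, 31 with 5 nuclei per sum and 0 without those nuclei. S40325 against S40327 gave 69, 70, 3 and 10 without a filter, with DESeq2, the block and 5 nuclei. Element position gave 2 without a filter, 63 with DESeq2 and 1 with limma.

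Values of members that were not called changed sign as follows. Cux2 against Sst nuclei was -0.245 with gates at 2 times the CPM and -1.377 without S40325. Cux2 against Pvalb nuclei was -0.041 with only the 2 classes, -0.078 with 3 nuclei per sum and -1.133 without S40325. Against Aqp4 nuclei Tle4 was -0.029 with RLE scaling and Fezf2 -0.441 without nuclei over 0.3% mitochondrial reads. For S40317 against S40327, Cux2 was 0.414 with limma and 7.632 with the block, Fezf2 -2.087 without those nuclei, and Rorb -0.029 with DESeq2, -1.69 with the block, -0.422 with 5 nuclei per sum and -0.028 with the other gates. Leaving out each construct gave 16 to 107 genes called for S40317, 0 to 4 for S40325 and 0 for position, with 0 members, and moved Cux2 from -1.014 to 0.975 and Rorb from -0.521 to 0.768.

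Without nuclei over 0.3% mitochondrial reads the share of excitatory nuclei at 20 CPM was 40.95% for Neurod2, 18.1% for Tbr1 and 14.29% for Fezf2. The share of Neurod2 nuclei with Tbr1 was 60.98%, 12.5% and 30.77% in S40317, S40325 and S40327 and 18.6% without those nuclei, and of Neurod6 nuclei with Tbr1 62.16%, 30.43%, 23.08% and 23.53%. Tle4 was in 85.71% of Fezf2 nuclei in S40327 and Rorb in 47.83% of Neurod6 nuclei in S40325. Rorb was in 54.55% and 13.33% of Cux2 nuclei in S40317 and S40325. Tle4 was in 0% of Neurod1 nuclei in S40325, in S40327 and without those nuclei. Cux2 was in 21.62% and 8.696% of Neurod6 nuclei in S40317 and S40325.

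No paired analysis was possible because the numbers in the titles count nuclei within a construct and pair nothing. Sums of 1 construct were matched instead, as the block in the class comparisons and as an alternative between pools. Leaving out each construct in the class comparisons was not run. Glia with 2000 genes or without S40327, and position without S40317 or S40327, gave no value. The 9 pairs whose shares are given here were chosen after their values were seen.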
